A study of Mus musculus with 8 samples.

Results

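Interferon-stimulated genes are switched on in a cell when interferon binds its receptors, and 29 of them were followed here across the mucosa of 2 segments of the mouse large bowel. They were chosen by name: 8 genes counted as type I (Ifit1, Ifit2, Ifit3, Isg15, Oasl2, Oas1a, Oas2 and Irf7), 7 counted as driven by interferon gamma (Gbp2, Gbp3, Gbp6, Cxcl9, Igtp, Iigp1 and Tap1), and 14 others. Probes were named through their transcript accession, and 27 of the 29 had a named probe (35 probes in all, among 16309 named genes on the array). All 27 were well above background on at least 4 of the 8 arrays and were tested, among 12722 genes tested. Expression of Cxcl11 and Xaf1 was not analysed here.

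The study compared the middle colon with the rectum, wild-type (WT) mice with IL18ko mice, which lack the cytokine interleukin 18, and control mice with mice under isolation stress. Each of the 8 combinations was 1 pool of RNA from 5 mice on a single 1-colour Agilent array, so the groups have no replicates and differences between mice are not seen. Litters of 5 brothers shared a cage until 10 to 12 weeks of age. The control mice of a cage (2 per cage) were then killed, and the 3 others lived alone for 8 days by the description of the design or 16 days by the treatment protocol, so the isolated mice were also older. The colon samples came from 2.5 to 3.5 cm beyond the ileocecal end and the rectum samples from the last 7 mm before the anus. Neither the mouse strain nor the structure of the Il18 deletion is given in the sources used here. Below, the 4 mouse groups are called WT control, WT stress, IL18ko control and IL18ko stress, and 4 values for a tissue are always given in that order.

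Type I interferons signal through the receptor of Ifnar1 and Ifnar2 and activate a complex with STAT2 and IRF9 that binds the interferon-stimulated response element (ISRE) of target promoters. Interferon gamma, made mostly by T cells and natural killer (NK) cells, signals through Ifngr1 and Ifngr2 to promoters with the gamma-activated site (GAS), and it also induces the factor IRF1. Many target genes answer to both kinds of interferon, and in the gut a low tonic level of such genes is maintained by epithelial and immune cells. Interleukin 18 is known for inducing interferon gamma in T and NK cells, together with interleukin 12.

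The promoters of the genes are shown first because these elements connect a gene to the signal. In the 250 bases before the gene start (RefSeq, GRCm38.p6), the ISRE letters (GAAA, any 2 bases, then GAAA), on either strand and with overlaps counted, stood in 12 of the 23 matched genes (52.2%) and in 936 of 27025 genes of the same table (3.46%). The GAS letters TTCNNNGAA, which read the same on both strands, stood in 6 of the 23 (26.1%) against 8.13% of all genes. The stretches below are written 5′ to 3′ in the direction of the gene, with matches in capitals. Ifit1 (chr19:34640775-34640823, plus strand), Isg15 (chr4:156200865-156200906, minus strand), Rsad2 (chr12:26456553-26456582, minus strand) and Bst2 (chr8:71537577-71537618, minus strand) are shown as genes that were lower in rectum. Ifit3 (chr19:34583363-34583426, plus strand), Gbp3 (chr3:142559989-142560024, plus strand) and Igtp (chr11:58199501-58199541, plus strand) are shown as genes with the same letters that were not called between the tissues. Psmb8 (chr17:34198088-34198116, plus strand) is shown as the gene that was higher in rectum.
Ifit1: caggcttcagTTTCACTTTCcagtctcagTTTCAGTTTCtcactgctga
Isg15: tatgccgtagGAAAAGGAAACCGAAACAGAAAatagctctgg
Rsad2: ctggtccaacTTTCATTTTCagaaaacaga
Bst2: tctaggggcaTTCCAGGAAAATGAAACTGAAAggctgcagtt
Ifit3: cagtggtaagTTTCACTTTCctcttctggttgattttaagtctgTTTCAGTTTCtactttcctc
Gbp3: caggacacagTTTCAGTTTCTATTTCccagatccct
Igtp: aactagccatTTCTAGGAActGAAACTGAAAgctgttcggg
Psmb8: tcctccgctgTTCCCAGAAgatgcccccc

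Ifit1 and Ifit3 hold 2 separate ISRE matches, each read on the strand opposite to the gene, Isg15 holds 3 that overlap, and Bst2 and Igtp hold matches to both motifs. The ISRE letters were in 6 of the 10 matched genes that were lower in rectum and in 6 of the 11 matched genes that were not called, so their presence did not separate these groups. The GAS letters were in 1 of those 10 genes, in 4 of those 11 and in Psmb8. Tap1 and Psmb9, which lie on chromosome 17 and are read in opposite directions, share 275 bases of their promoter windows (chr17:34187306-34187605 for Tap1 and chr17:34187281-34187580 for Psmb9), and neither held either motif in the 250 bases searched. A match describes letters and not a bound site.

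Between 62.2% and 66.4% of the 43379 spots of an array were well above background, and none was saturated. Il18, the deleted gene, lay between 2.76 and 5.88 on the 4 WT arrays. On the 4 IL18ko arrays it lay between -7.85 and -7.48 and never well above background. Levels are log2 intensities relative to the 75th percentile of the array, so a negative level means below that percentile. Across tested genes, the correlation r was 0.982 to 0.994 between arrays of one tissue and 0.938 to 0.954 between a colon and a rectum array. All colon arrays were on one slide and all rectum arrays on another, with another scan date, so slide, scan date and tissue cannot be told apart. On either slide the WT arrays had places 1 (control) and 2 (stress) and the IL18ko arrays places 3 (control) and 4 (stress). Place and mouse group therefore cannot be told apart either. All 14 markers of colon epithelium on the array were well above background on every array. The summed linear level of the 16 T and NK cell markers was 0.898 to 1.38 on colon and 0.384 to 0.642 on rectum arrays, where 1 is the 75th percentile, and Cd247 and Ncr1 were not well above background on any array. That of the 9 B and plasma cell markers was 14.8 to 30.1 and 1.78 to 4.93, and that of the 14 macrophage and dendritic cell markers 28.5 to 46.1 and 40.8 to 94.0. The 12 skeletal muscle markers summed to 3.79 to 6.72 on colon and 7.24 to 188.9 on rectum arrays, highest in IL18ko control rectum, and the 11 squamous epithelium markers to 4.92 to 6.42 and 6.01 to 9.39. In bulk mucosa, fewer cells of a type and less RNA per cell cannot be told apart.

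The comparison of rectum with colon gave most of the differences. Of the 27 genes, 14 were lower in rectum, Psmb8 was higher and 12 were not called (limma on the 4 rectum minus colon differences, Benjamini-Hochberg adjusted p under 0.05). Over all tested genes 15.8% were lower and 14.1% were higher by the same rule. Cxcl9 and Ifi44 passed the filter on dim probes through their colon arrays alone, and Oas2 with 2 of its rectum arrays, so their calls do not add support to the count. Of the 24 genes well above background on all 8 arrays, 11 were lower and 1 was higher, where 27.9% of all such genes were called in either direction. The median difference of these 24 was -0.36, against 0.04 over all such genes. With Cxcl9, Ifi44 and Oas2 included, the median of the 27 genes was -0.49, against 0.03 over all tested genes. Colon and rectum arrays did not overlap for 14 of the 27, with rectum below for 13 and above for Psmb8. Of all genes 16.2% and 17.0% had no overlap in these directions. Cxcl9, Ifi44 and Oas2 are among the 13 and add no support to that count either.

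Of the type I genes, 5 of 8 were lower in rectum, where 15.8% of all genes were. These 5, with Oas2 among them, were not all the genes of a family. Ifit1, whose product binds viral RNA that lacks host cap marks, was at -1.31, -1.82, -1.28 and -1.51 on the colon arrays and at -3.69, -3.72, -3.76 and -3.80 on the rectum arrays. Every rectum array was below every colon array, and the mean difference was -2.26 ± 0.14 (log2, SE from limma, n = 4 pairs; adjusted p = 0.000125), a 4.79-fold lower level. Its neighbours on chromosome 19 did not follow. Ifit2, of the same family, was at -3.30, -3.39, -3.69 and -3.44 in colon and at -3.63, -4.69, -3.45 and -3.44 in rectum. The tissues overlapped and the low value came from WT stress rectum (-0.35 ± 0.26, adjusted p = 0.379 by limma). Ifit3, whose product is a partner of IFIT1 in human cells, ranged from -0.90 to -0.43 in colon and from -1.27 to -0.59 in rectum (-0.18 ± 0.13, adjusted p = 0.362 by limma).

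The Oas family makes or resembles the enzymes that form 2′-5′ oligoadenylates and activate RNase L. Its 3 genes among the 29, all on chromosome 5, also parted. Of the family outside the 29, Oas1c was called higher in rectum and Oas3 was not called. Oas2 was at -3.82, -3.96, -3.16 and -3.71 in colon and at -6.46, -6.59, -5.76 and -5.82 in rectum. Both WT rectum arrays were not well above background, so the size of the difference (-2.50 ± 0.19, adjusted p = 0.000247 by limma) carries the noise of low signals, and it was -0.63 with normexp background correction, which shrinks differences of dim probes by an added offset. Oasl2, a family member with ubiquitin-like domains, was at 1.13, 1.19, 1.38 and 0.98 in colon and at -0.39, -0.36, -0.24 and -0.22 in rectum, with no overlap (-1.48 ± 0.11, adjusted p = 0.000273 by limma). Oas1a stayed within a range of 0.30 over all 8 arrays, from 2.80 to 3.11 in colon and from 2.99 to 3.09 in rectum (0.03 ± 0.10, adjusted p = 0.851 by limma). A range under 2-fold over the 8 arrays was found for 60.2% of all tested genes.

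Isg15, the ubiquitin-like protein that is attached to other proteins after interferon, was at 0.05, -0.37, -0.52 and -0.75 in colon. It was at -1.45, -2.26, -1.76 and -1.72 in rectum, lowest in WT stress, and the tissues did not overlap (-1.40 ± 0.17, adjusted p = 0.00154 by limma). Irf7, the factor that amplifies the transcription of interferon alpha genes, was at 1.53, 2.03, 2.22 and 1.53 in colon and at 1.08, 0.50, 1.02 and 1.39 in rectum. Its arrays did not overlap, but the 4 pair differences ran from -1.53 to -0.14 (mean -0.83 ± 0.24, adjusted p = 0.0428 by limma), and the call was lost in 5 of 16 alternative analyses.

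**Figure D1:**
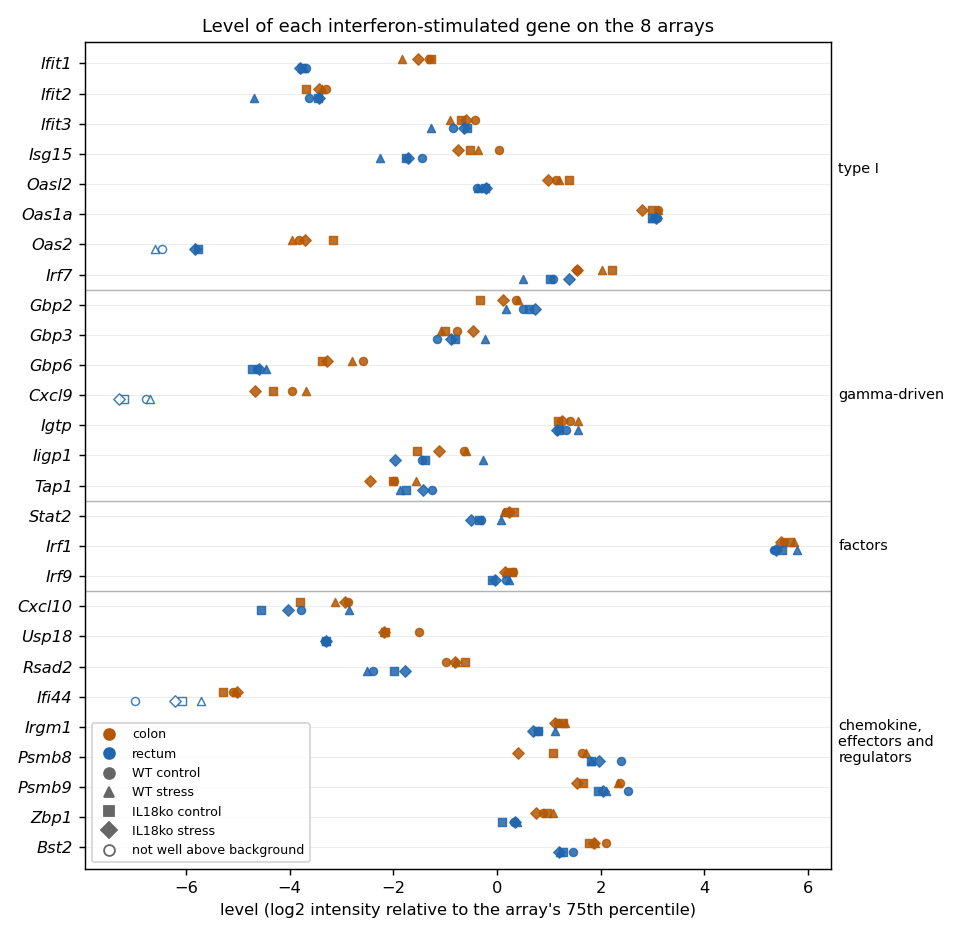
Level (log2 intensity relative to the 75th percentile of the array, x axis) of the 27 tested genes (y axis) on each of the 8 arrays, with colon above and rectum below the line of each gene. Open symbols were not well above background, and levels are to be compared within a gene only. Ifit1, Oas2 and Cxcl9 show colon and rectum apart, while Oas1a and Igtp lie together.

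Of the genes assigned to interferon gamma, 2 of 7 were lower in rectum, where 15.8% of all genes were, and 5 were not called. Cxcl9, a chemokine that draws T cells through the receptor Cxcr3, was at -3.96, -3.68, -4.32 and -4.67 on the colon arrays and at -6.76, -6.69, -7.19 and -7.29 on the rectum arrays. It was well above background on 4 of 4 colon arrays and on 0 of 4 rectum arrays. It passed the filter through colon alone, so its limma call adds no support. Against the floor of each array its level was at least 6.73-fold lower in rectum. Such a bound sets the colon mean against the lowest signal well above background on each rectum array, or the probe's own signal where that is higher. It depends on the floor: the log2 difference of Cxcl9 was -2.24 with all values raised to the highest floor of any array, and -0.60 with normexp. Gbp6, a guanylate-binding GTPase that acts on vacuoles of intracellular microbes, was at -2.58, -2.80, -3.37 and -3.29 in colon and at -4.63, -4.46, -4.72 and -4.60 in rectum. The tissues did not overlap (-1.60 ± 0.18, adjusted p = 0.00121 by limma), and the difference was -0.69 with normexp.

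The other guanylate-binding genes did not share this difference. Gbp2 lay between -0.34 and 0.40 in colon and between 0.17 and 0.73 in rectum (0.37 ± 0.20), and Gbp3 between -1.08 and -0.46 and between -1.16 and -0.22 (0.05 ± 0.23). Of the immunity-related GTPases, Igtp varied over only 0.41 across the 8 arrays (-0.04 ± 0.09), and Iigp1 differed by -0.29 ± 0.23 with pairs in both directions. Tap1, a subunit of the peptide transporter for MHC class I, differed by 0.42 ± 0.22, and adjusted p values of these 5 genes lay between 0.208 and 0.886 (limma).

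Among the remaining genes, 7 of 12 were lower, with Ifi44 among them, and 1 was higher, where 15.8% and 14.1% of all genes were. Rsad2, whose product viperin makes a chain-terminating nucleotide, was at -0.98, -0.78, -0.61 and -0.80 in colon and at -2.40, -2.52, -1.98 and -1.77 in rectum (-1.37 ± 0.15, adjusted p = 0.00105 by limma). All 3 of its probes were called lower, at -1.37, -1.46 and -1.54. Usp18, which takes ISG15 off proteins and damps the type I receptor, was at -1.51, -2.18, -2.17 and -2.17 in colon and at -3.33, -3.29, -3.31 and -3.30 in rectum (-1.30 ± 0.16, adjusted p = 0.00196 by limma). Its WT control colon value stood above the others, the rectum values were nearly equal, and the difference was -0.86 with normexp.

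Ifi44 was well above background on 4 of 4 colon arrays (-5.28 to -5.02) and on 0 of 4 rectum arrays. Against the floor of each array it was at least 2.19-fold lower in rectum. It passed the filter through colon alone, so its limma call adds no support. With the highest floor of any array its log2 difference was -0.99, and with normexp it was -0.17 and not called (adjusted p = 0.253 by limma). Bst2, or tetherin, which holds budding virus particles at the cell surface, was at 2.09, 1.90, 1.77 and 1.87 in colon and at 1.47, 1.21, 1.28 and 1.19 in rectum (-0.62 ± 0.10, adjusted p = 0.00448 by limma). The nucleic acid sensor Zbp1 was at 0.76 to 1.08 in colon and 0.10 to 0.38 in rectum, again without overlap (-0.64 ± 0.11). Of the transcription factors, Stat2 was lower by a small amount (-0.49 ± 0.14, adjusted p = 0.0433 by limma), while Irf1 (-0.10 ± 0.09) and Irf9 (-0.17 ± 0.11) were not called. The GTPase gene Irgm1 differed by -0.37 ± 0.10 and its second probe by -0.45, and both were called. The chemokine Cxcl10, which shares the receptor of Cxcl9, differed by -0.63 ± 0.25 and was not called (adjusted p = 0.108 by limma).

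Psmb8 and Psmb9 encode catalytic subunits that replace the standard ones in the immunoproteasome, which cuts peptides for MHC class I. Psmb8 was at 1.63, 1.71, 1.08 and 0.41 in colon and at 2.38, 1.82, 1.82 and 1.96 in rectum. All rectum arrays were above all colon arrays (0.79 ± 0.22, adjusted p = 0.0401 by limma), and its second probe gave 0.85 without passing (adjusted p = 0.0595 by limma). Psmb9 differed by 0.19 ± 0.14 and was not called (adjusted p = 0.371 by limma).

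**Figure D2:**
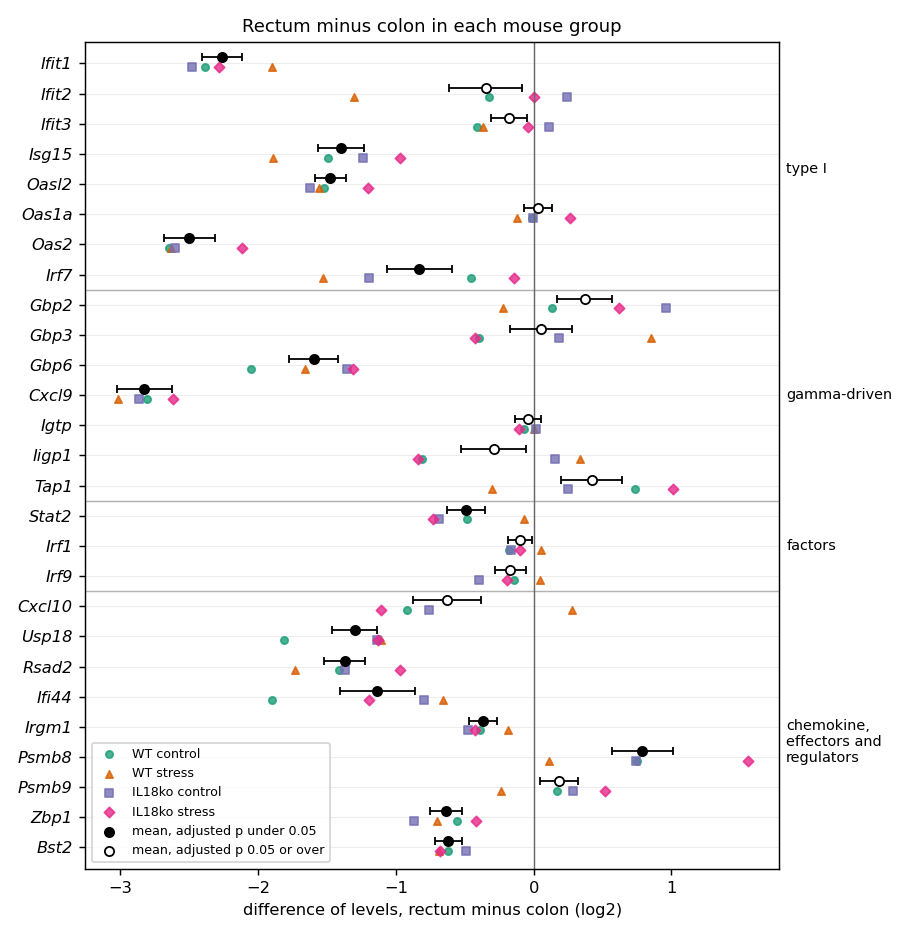
Rectum minus colon difference of the level (log2, x axis) of the 27 tested genes (y axis) in each of the 4 mouse groups (coloured symbols), with the mean and the SE from limma (black; filled where the adjusted p was under 0.05). The mean differences run from -2.82 for Cxcl9 to 0.79 for Psmb8, and within the Ifit, Oas and Gbp families some genes lie far below 0 and others near it.

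Ifit1, Isg15, Oasl2, Oas2, Gbp6, Cxcl9, Usp18, Rsad2 and Bst2 were called lower in each alternative analysis in which they could be tested. For Oas2 and Cxcl9 the limit of the filter on dim probes, given above, holds here too. The calls of Irf7, Stat2, Ifi44, Irgm1, Psmb8 and Zbp1 were lost in 2 to 6 of theirs. Without the WT control pair or without the IL18ko control pair 9 of the 27 genes were called, where 15.4% and 16.5% of all genes were. The markers of immune cells moved too: 6 of the 12 tested T and NK cell markers were lower in rectum, among them Gzmb (-2.56 ± 0.27) and Ccl5 (-1.96 ± 0.22), and 0 were higher. For macrophages and dendritic cells 5 of 13 were higher and 0 lower, where 14.1% and 15.8% of all genes were. The part of these cell types, and of the skeletal muscle signal in rectum, in the difference of the interferon-stimulated genes was not tested.

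Among the interferon genes upstream, Ifna9, Ifna13, Ifnab and Ifnz were well above background on 8 of 8 arrays. Ifng was well above background on 2 of 8 arrays, with levels from -8.37 to -4.98, and Ifnb1 on none. Of 19 interferon genes in the list 13 had a named probe and 7 were tested. Of these, Ifnab was higher in rectum (0.74 ± 0.15), and Ifna12 was well above background on 0 of 4 colon arrays and on 4 of 4 rectum arrays, where it lay between -5.03 and -4.10. Interferon alpha genes are near copies of each other, so their probes may share targets. Of 18 receptor and JAK-STAT genes, 3 were higher in rectum, Jak2 (0.54 ± 0.09), Ifngr2 (0.46 ± 0.09) and Stat3 (0.33 ± 0.09), and 2 were lower, Usp18 and the inhibitor Socs3 (-0.44 ± 0.13). Ifnar1, a receptor chain for type I interferon, differed by 0.03 ± 0.15 and was not called (adjusted p = 0.897 by limma).

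Of the 8 tested genes that act on interferon gamma production, Il15 (1.05 ± 0.14) and Il27 (0.61 ± 0.15) were higher in rectum. Tbx21, the factor of T helper 1 and NK cells, was lower (-1.17 ± 0.17), as was Il18r1, a chain of the interleukin 18 receptor, which was well above background on 1 of 4 rectum arrays. Of 16 tested nucleic acid sensors, adaptors and factors, Irf2 (1.45 ± 0.23) and Dhx58 (0.38 ± 0.10) were higher and the RNA sensor Tlr3 was lower (-0.60 ± 0.16). Beside both lists, 14.1% of all genes were higher and 15.8% lower.

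Of 36 other genes induced by type I interferon, 5 were higher, where 14.1% of all genes were, led by Sp110 (1.25 ± 0.12), Ifi204 (1.15 ± 0.19) and Samhd1 (0.92 ± 0.22), and 2 were lower, Isg20 (-1.09 ± 0.14) and Ifi27l2a (-0.46 ± 0.11), where 15.8% of all genes were. Their median was 0.16, and the difference from the 27 genes was not tested. Of 26 other genes induced by interferon gamma, 5 were lower, led by Ido1, which breaks down tryptophan (-2.79 ± 0.22), the GTPase Ifi47 (-2.69 ± 0.14) and the MHC class I light chain B2m (-0.72 ± 0.11). A further 3 were higher, Cd274 (0.75 ± 0.17), Tap2 (0.72 ± 0.20) and Batf2 (0.58 ± 0.13), and the median was 0.04.

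The comparison of genotypes asked whether these genes differ without interleukin 18. With genotype and housing fitted to the 4 tissue means, 4 of the 27 genes were lower in IL18ko and 0 were higher (limma, adjusted p under 0.05), where 6.37% and 6.62% of all tested genes were called lower and higher. These calls rest on 1 residual degree of freedom and a spread borrowed across probes, and genotype goes with the place on the slide. In a fit of the 8 arrays as independent samples 0 of the 27 and 17 of all genes were called, so the 4 genes are given with the values of each pair. Each of these calls was lost in 10 or 11 of 20 or 21 alternative analyses.

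Iigp1, a GTPase that loads on the vacuoles of intracellular parasites, was at -0.63, -0.60, -1.54 and -1.12 in colon and at -1.44, -0.27, -1.39 and -1.97 in rectum. The IL18ko arrays were lower in 3 of 4 pairs by 0.52 to 1.70 and higher by 0.06 in control rectum (mean -0.77 ± 0.15, adjusted p = 0.00637 by limma; SD of the 4 pairs 0.74). Cxcl10 was at -2.87, -3.13, -3.80 and -2.93 in colon and at -3.79, -2.86, -4.56 and -4.04 in rectum. It was lower in IL18ko in 3 of 4 pairs and higher by 0.21 in stress colon (mean -0.67 ± 0.17, adjusted p = 0.0257 by limma; SD of the pairs 0.61; -0.33 with normexp). Psmb8 was lower in IL18ko in 3 of 4 pairs, by 1.30 in stress colon, and higher by 0.14 in stress rectum (mean -0.57 ± 0.10, adjusted p = 0.00439 by limma; SD of the pairs 0.59), and its second probe gave -0.55. Without the IL18ko stress colon array, in the design of 8 independent arrays, the difference of Psmb8 was -0.38.

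Psmb9 was at 2.36, 2.33, 1.66 and 1.53 in colon and at 2.53, 2.10, 1.95 and 2.05 in rectum. It alone of these 4 genes was lower in IL18ko in 4 of 4 pairs (mean -0.53 ± 0.10, adjusted p = 0.00697 by limma; SD of the pairs 0.34), although the stress rectum pair differed by only -0.04. Lower in 4 of 4 pairs were also Gbp6, Cxcl9, Igtp, Irf9 and Bst2, which were not called. These 6 genes of 27 stand beside 15.4% of all genes with that pattern. Cxcl9 had the largest mean among them (-0.59 ± 0.28, adjusted p = 0.189 by limma), and on its rectum arrays it was not well above background.

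None of the 8 type I genes was called between genotypes by limma. In that fit 2 of them, Oas2 and Irf7, had an unadjusted p under 0.05, as did 29.7% of all genes. Both had a higher mean in IL18ko. The pairs of Irf7 went both ways, at 0.68 and -0.49 in colon and -0.06 and 0.89 in rectum (control, stress). Oas2 was higher in 4 of 4 pairs, by 0.25 to 0.77 (mean 0.59 ± 0.23, adjusted p = 0.117 by limma), a pattern of 12.4% of all genes. In both rectum pairs, which gave the largest values, its WT array was not well above background. The medians of the 8 type I and the 7 gamma-driven genes were 0.16 and -0.27, and the difference between the lists was not tested. By pair, the type I median was -0.04 and -0.13 in colon and 0.05 and 0.59 in rectum (control, stress). That of the gamma-driven genes was -0.36 and -0.49 in colon and, over 6 genes, -0.02 and -0.28 in rectum.

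Of the 26 other genes induced by interferon gamma, 2 were lower in IL18ko, where 6.37% of all genes were. Ifi47 was lower in 4 of 4 pairs, by 0.70 to 1.53 (-1.10 ± 0.14, adjusted p = 0.000556 by limma), and Tgtp1, also a GTPase of that family, by 0.01 to 1.02 (-0.66 ± 0.16). Serping1, the inhibitor of complement component C1, was higher (0.42 ± 0.10). In the other lists of ligands, receptors, inducers, sensors and type I induced genes limma called none between genotypes. Of the 12 tested T and NK cell markers Klrd1 was lower in IL18ko (-0.76 ± 0.16), and of the 8 B and plasma cell markers 2 were lower. By the same rule 6.37% of all genes were lower. Called higher were Cd163 of 13 macrophage and dendritic cell markers and Pacsin1 of 6 plasmacytoid dendritic cell markers. Krt5 and Col17a1 of 7 squamous epithelium markers were also higher. Of 14 colon epithelium markers Cdx2 was higher and Lgr5 lower. Of markers of tissue under the epithelium, 7 of 12 for skeletal muscle, 4 of 8 for smooth muscle and 3 of 10 for fibroblasts and endothelium were called higher in IL18ko, where 6.62% of all genes were. For 10 of the 12 skeletal muscle markers the genotype difference was larger in rectum than in colon (limma). Their summed level in colon was 4.16 and 6.72 in WT (control, stress) and 3.79 and 5.64 in IL18ko, and in rectum 7.24 and 25.7 in WT and 188.9 and 41.0 in IL18ko. The part of these cells in the values of the interferon-stimulated genes was not tested.

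**Figure D3:**
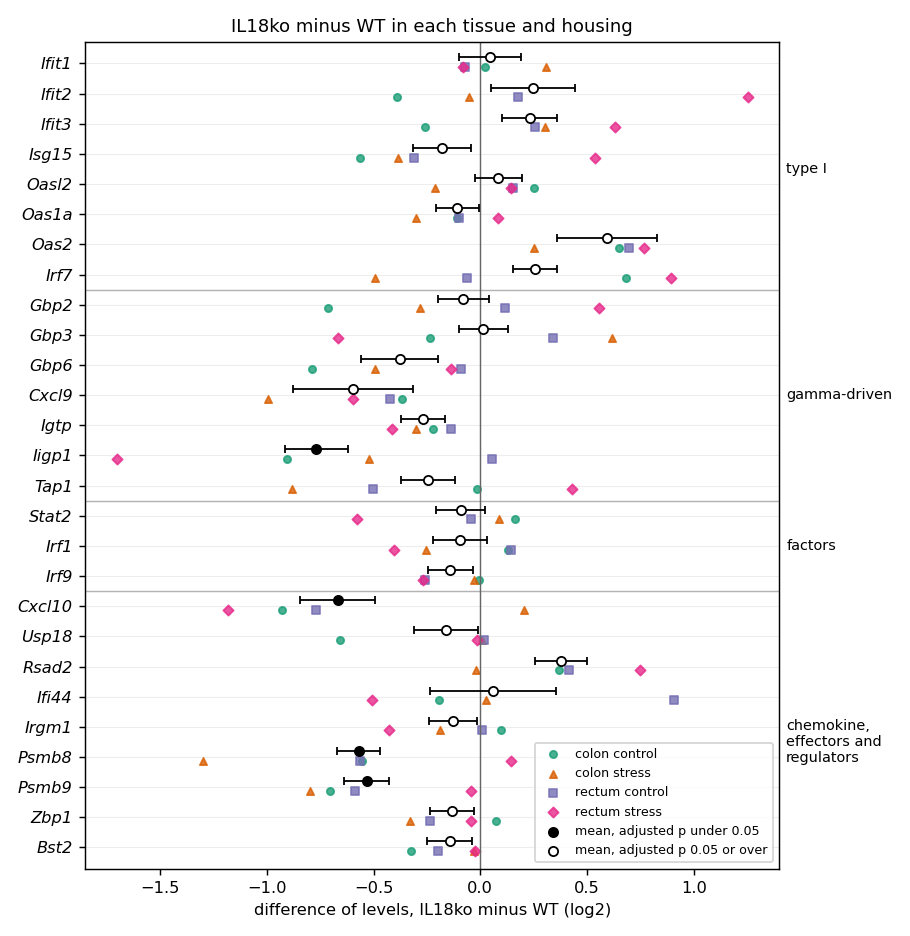
IL18ko minus WT difference of the level (log2, x axis) of the 27 tested genes (y axis) in each tissue and housing (coloured symbols), with the mean and the SE from limma (black; filled where the adjusted p was under 0.05). Iigp1, Cxcl10, Psmb8 and Psmb9 were called, with means from -0.77 to -0.53, and 3 of these 4 have a pair above 0.

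Between isolated and control mice limma called none of the 27 genes (smallest adjusted p = 0.376, for Cxcl10), with 4 at an unadjusted p under 0.05, Isg15 and Psmb8 lower and Gbp3 and Cxcl10 higher. Over all genes 8 of 12722 were called (0.0629%), and 9.71% had an unadjusted p under 0.05. The mean difference of all 8 type I genes was below 0, from -0.35 ± 0.14 for Isg15 to -0.06 ± 0.10 for Oas1a, with a median of -0.21, and 42.8% of all genes had a mean below 0. Ifit1 and Oas2 were lower in 4 of 4 pairs, a pattern of 5.59% of all genes. The 7 gamma-driven genes had a median of 0.06. Single pairs did not follow these means: Irf7 was higher with isolation in WT colon (0.49) and IL18ko rectum (0.37) and lower in IL18ko colon (-0.69) and WT rectum (-0.58).

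Within a tissue and genotype, isolation was 1 array against 1 array, with no replicate and no test. Past 2-fold, WT rectum had 1 of 24 genes higher and 1 lower, where 3.26% and 2.44% of all genes were. Iigp1 went from -1.44 in control to -0.27 in isolated WT mice, and Ifit2 went from -3.63 to -4.69. Gbp3 (0.93) and Cxcl10 (0.93) were higher and Isg15 (-0.81) was lower there without reaching 2-fold. In WT colon, IL18ko colon and IL18ko rectum 0 genes passed 2-fold, and 3.25%, 2.80% and 2.64% of all genes did.

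The same arrays give the genotypes within a housing. In stress rectum Ifit2 was 1.25 higher in IL18ko than in WT, and Iigp1 and Cxcl10 were lower (-1.70 and -1.18), with 5.55% of all genes higher and 4.43% lower by over 2-fold. In stress colon Psmb8 was lower by 1.30, with 3.84% of all genes higher and 1.89% lower. In control colon and control rectum 0 genes passed, and 3.44% and 4.77% of all genes did. The WT stress rectum array enters the isolation and the genotype values of Iigp1, Ifit2 and Cxcl10, so these are not separate observations. For Iigp1, that array was the highest of the 8 and for Ifit2 the lowest.

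**Figure D4:**
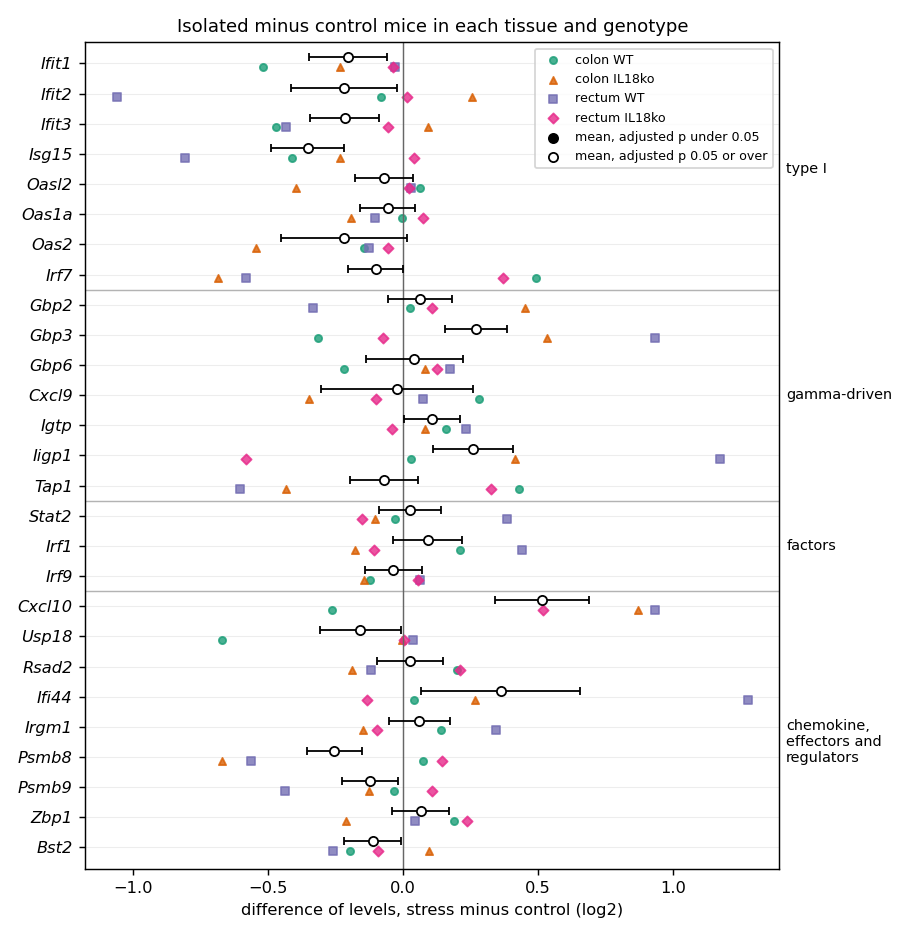
Stress minus control difference of the level (log2, x axis) of the 27 tested genes (y axis) in each tissue and genotype (coloured symbols), with the mean and the SE from limma (black open circles). No mean passed the adjusted threshold, all 8 type I means lie below 0, and the WT rectum pair holds the most distant values of Ifit2, Iigp1 and Ifi44, where Ifi44 was not well above background on either rectum array.

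Whether genotype or isolation acted differently in the tissues was tested on the 4 rectum minus colon differences. Limma called 0 of the 27 genes for genotype and 0 for isolation, and 0 and 0 had an unadjusted p under 0.05. Over all genes 0.550% and 0.181% were called. The dependence of the isolation difference on genotype, a test added after the values were seen, gave 0 calls and 1 gene at an unadjusted p under 0.05, Irf1 (-0.47).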

How the data were processed

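Per the file headers, the intensity of each spot came from Feature Extraction 9.5.1.1 on an array designed on build mm7, background-corrected and on a linear scale. The authors also deposited a table whose values are linear ratios of each array to that of WT control colon. Set against log2 ratios of the scanner intensities over 18277 probes, r was 0.995 to 1.00, which settles scale and direction. The medians of its 7 other columns were 1.05, 0.987 and 0.977 (colon WT stress, IL18ko control, IL18ko stress) and 1.07, 0.998, 1.02 and 1.12 (rectum, in the order of the report). How the authors centred it is not given in the sources used here.

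Outlier spots were left out and spots of a probe averaged (40963 of 41174 probes; 22857 named). Levels are log2 intensities minus the 75th percentile of the array, and the brightest tested probe stood for its gene. Tests used limma 3.58.1 (R 4.3.3) with a mean-variance trend. It ran on the 26273 probes that 4 or more of the 8 arrays measured well above background, adjusted over all of them, and was tested on simulated data. Tissue used the 4 rectum minus colon differences (3 residual degrees of freedom, prior 3.56). Genotype and housing used the 4 tissue means (1 residual, prior 13.3). The pairing assumes that both tissues of a group came from the same mice, which the labels do not say. The tissue p-values measure the spread of the 4 differences together with a spread borrowed across probes. Those of genotype and housing rest mostly on the borrowed spread. Each pool is a different condition, so no p-value measures a spread between like pools, and the number of arrays limits the precision. Tables and plots were made with pandas 2.3.3, numpy 2.4.6 and matplotlib 3.10.9 in Python 3.11.15.

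The genes and lists were chosen with earlier results of these data known. All 29 genes are accounted for, and from the other lists at most the 3 largest called rises and falls are named. Besides these, some genes were picked after their values were seen (Oas1c, Oas3, Ifna12, Ifnar1, Ifng, Ifnb1 and markers). Alternatives were other normalizations, background corrections, filters, variance models, designs, the deposited ratios and leaving out pairs or arrays.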

Additional observations from a re-analysis of the deposited data

Results flagged for a closer look

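For 2 of the 27 genes, 1 of the 4 rectum minus colon differences stood apart from the other three by Dixon's test at 95%, which flags about 1 in 20 groups by chance. Oas2 differed by -2.11 in IL18ko stress mice and by -2.65 to -2.60 in the other groups. Usp18 differed by -1.81 in WT control mice and by -1.14 to -1.11 in the others, and its WT control colon level was -1.51 against -2.18 to -2.17 on the other colon arrays.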

How the results depend on the processing

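Over 16 alternatives the tissue comparison called 8 to 19 of the 27 genes where the report has 15, and 13 of the 16 counts lay within 1.5 times of it. The deposited ratios gave 8 (all lower, of 21 genes with a value), and 28.9% of all genes. Leaving out 1 mouse group gave 9 (without WT control, and without IL18ko control) to 19 (without WT stress). Of all genes 15.4% were called without WT control, 16.5% without IL18ko control and 44.8% without WT stress, where the report has 29.9%. The median difference was -0.36 for genes above background on all 8 arrays, -0.25 with the deposited ratios, -0.26 with normexp (offset 50) and -0.60 to -0.46 when 1 mouse group was left out (-0.60 without WT stress). The normexp setting left out 15 probes far under their local background, chosen after seeing the data. For genotype, 0 genes were called with the 8 arrays as independent, with no filter on dim probes or with no variance trend. Of all genes 0.134%, 0.0123% and 0.0707% were called there. A random block for mouse group, whose estimated correlation was -0.47, called 9 (2 higher, 7 lower), and 22.0% of all genes. Leaving out 1 array, in the design of 8 independent arrays, gave 0 to 2, with 2 (Psmb8 and Psmb9) without the WT stress rectum array. Isolation and the effects of tissue on genotype and isolation called 0 genes under every alternative run. At 1.5-fold in place of 2-fold, the comparisons of 1 array with 1 array counted 8, 5, 3 and 8 genes between genotypes (control colon, stress colon, control rectum, stress rectum). For isolation they counted 1, 3 and 6 (WT colon, IL18ko colon, WT rectum). The share of all genes past 1.5-fold is not given here, so these counts do not set the 27 genes apart from other genes. For stress colon quantile normalization and median centring each gave 2, for stress rectum normexp gave 1, and for isolation in WT rectum normexp gave 0 and the deposited ratios 1. The causes were not tested, and no direction of a called gene was reversed. The tissue test pairs arrays by mouse group, not by replicate number, which the labels do not give. With the 8 arrays as independent it also called 15 genes, and 34.8% of all genes. A block for slide was not run, since slide and tissue are the same. Low signals limit the sizes of the tissue differences: normexp moved those of Oas2, Cxcl9, Ifi44, Gbp6 and Usp18 by over 1.5 times.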

Other observations

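The median deviation of the 8 type I genes from their own means over the 8 arrays was 0.51, 0.67, 0.69 and 0.27 on the colon arrays (WT control, WT stress, IL18ko control, IL18ko stress) and -0.34, -0.99, -0.53 and -0.32 on the rectum arrays. On the WT stress rectum array 0 of the 8 genes were above their mean. The medians of the 7 gamma-driven genes were 0.07, 0.23, -0.20 and -0.01 in colon and -0.32, -0.07, -0.14 and -0.18 in rectum, with 6 of 7 genes above their mean on each WT colon array and 2 or 3 of 7 on each other array. The second probe of Ifit2 was not well above background on any array, and that of Oas2 on 1 array only, WT control colon.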
